A study of Homo sapiens with 15 samples.

Results

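The 10 genes described here are HMGCS1, ACAT2, MVD, IDI1, FDPS, SQLE, MSMO1, NSDHL and DHCR7, which encode enzymes of cholesterol synthesis, and INSIG1, which encodes a regulator of that pathway. They were found by gene symbol in the platform annotation, with the probe set of highest mean over all arrays for each symbol, and they are 10 of 14675 genes measured under a name. All 10 were present, and no filter removed any of them. They were chosen with earlier results of these data known, so counts of calls among them are not independent of the choice. Human Gene 2.0 ST arrays read the transcripts of H1975 cells, an established line from a non-small cell lung cancer that carries a mutated EGF receptor. Every group held the same line after overnight starvation without serum and then 50 ng/ml EGF (epidermal growth factor), with no second treatment or genotype, and the labels set the groups apart by time. The 15 arrays comprised 2 for 0.5 h, 3 each for 24 h and 48 h, and a single one for 1, 2, 4, 6, 8, 12 and 18 h. Unstimulated cells were not analysed here, so an effect of EGF and of time in the starved culture cannot be told apart.

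Cholesterol is built from acetyl-CoA. The mevalonate part of the pathway makes isoprenoid units, which are joined to squalene, closed to lanosterol and trimmed to cholesterol. In the endoplasmic reticulum INSIG proteins hold the sensor SCAP and its cargo, the SREBP transcription factors, when sterols are abundant. When sterols are scarce SREBP is released and activates the genes of the pathway, INSIG1 among them, and many of these promoters are known to need the factor NF-Y, which binds the letters CCAAT.

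Levels are SCAN scores, which the authors computed for each array on its own, on a log scale and standardised within the array. A difference between times is given in SCAN units and thus compares a gene with the rest of its array. No fold change is given because 1 unit is not a fixed fold. Array medians ranged from 0.064 to 0.079. Of the 5 epithelial markers measured, EPCAM scored 2.09 to 2.24 over the arrays, KRT18 2.83 to 2.97, KRT19 1.69 to 1.92, KRT7 1.45 to 1.76 and KRT8 0.72 to 0.88. Of the 3 mesenchymal markers, VIM scored 1.61 to 1.80, while the fibroblast genes DCN and LUM stayed between -0.13 and 0.17. The endothelial gene VWF lay between -0.086 and 0.031. CD68, the one blood cell marker named here, scored 2.42 to 2.59.

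Promoter windows from RefSeq (GRCh38.p14) were matched by symbol for 8 of the 10 genes, and SQLE and ACAT2 were not matched. In the 250 bases before the start, CCAAT on either strand was found for all 8, against 37.0% of 27305 genes. It occurred at least 3 times in 1 window for IDI1, FDPS, MSMO1, NSDHL and MVD, which is 5 of 8 against 3.55% of genes. The Sp1 letters GGGCGG were found for 7 of 8, the exception being NSDHL, against 46.2%. CACGTG was found only for INSIG1 among these 8, against 7.73% of all genes, and TCACNCCAC, a form of the sterol regulatory element, for 0 of 8 against 1.09%. Genes with several windows had more chances, which applied to HMGCS1, IDI1 and DHCR7. The following 4 windows are shown because each gene has a single one and they span 1 to 5 matches of CCAAT. They are INSIG1 at chr7:155297628-155297877, MSMO1 at chr4:165327419-165327668, FDPS at chr1:155308616-155308865 and NSDHL at chrX:152830813-152831062, all on the + strand, with CCAAT and its reverse complement ATTGG in capitals. In NSDHL and IDI1 a match on each strand overlaps in CCAATTGG and both were counted, as in all genes. In IDI1 this overlap gives the third match.
INSIG1: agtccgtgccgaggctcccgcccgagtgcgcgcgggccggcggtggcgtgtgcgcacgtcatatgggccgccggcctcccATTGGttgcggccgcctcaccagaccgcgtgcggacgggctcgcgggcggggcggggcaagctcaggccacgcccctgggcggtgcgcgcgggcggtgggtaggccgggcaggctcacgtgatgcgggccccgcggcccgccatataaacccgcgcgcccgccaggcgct
MSMO1: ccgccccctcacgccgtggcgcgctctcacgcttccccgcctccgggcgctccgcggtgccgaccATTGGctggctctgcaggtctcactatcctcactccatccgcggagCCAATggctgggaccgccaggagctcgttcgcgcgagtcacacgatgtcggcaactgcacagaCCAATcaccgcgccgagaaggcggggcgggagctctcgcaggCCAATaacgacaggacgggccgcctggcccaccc
FDPS: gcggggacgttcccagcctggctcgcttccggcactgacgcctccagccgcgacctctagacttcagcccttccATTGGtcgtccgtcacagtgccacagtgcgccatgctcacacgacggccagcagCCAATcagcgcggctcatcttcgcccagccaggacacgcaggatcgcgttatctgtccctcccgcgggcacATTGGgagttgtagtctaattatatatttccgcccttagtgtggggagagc
NSDHL: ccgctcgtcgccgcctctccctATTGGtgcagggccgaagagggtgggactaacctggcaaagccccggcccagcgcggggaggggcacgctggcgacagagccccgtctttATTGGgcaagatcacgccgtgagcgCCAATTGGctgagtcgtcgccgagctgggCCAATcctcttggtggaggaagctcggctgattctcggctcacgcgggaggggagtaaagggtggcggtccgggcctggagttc
A match is a description of the letters and not evidence of binding.

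All 10 genes were lower at 48 h than at 24 h, the pair of times with 3 arrays each. The fall ranged from 0.39 units for ACAT2 to 0.11 units for MSMO1. In each of the 10 genes every 48 h array lay below every 24 h array, which held for 14.3% of all genes. Before the fall, all 10 genes scored higher on the 12 h array than on average at 0.5 h, and 7 of these differences passed an adjusted p of 0.05 (1.7% of all genes did so upward), led by FDPS and MSMO1. By 48 h HMGCS1, NSDHL, INSIG1 and ACAT2 stood below their 0.5 h level, whereas MSMO1 stood above it. The time of the highest mean differed between the genes, but it rests mostly on single arrays, and some margins were small. It fell at 12 h in HMGCS1, FDPS, MSMO1 and NSDHL, and at another time in the other 6. ACAT2 scored 1.624 at 6 h and 1.623 at 12 h, and MVD 1.547 at 18 h and 1.545 at 12 h. NSDHL scored 2.823 at 12 h and 2.817 at 4 h. With each array centred on its median, the high fell at 12 h in 7 of the 10.

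**Figure D1:**
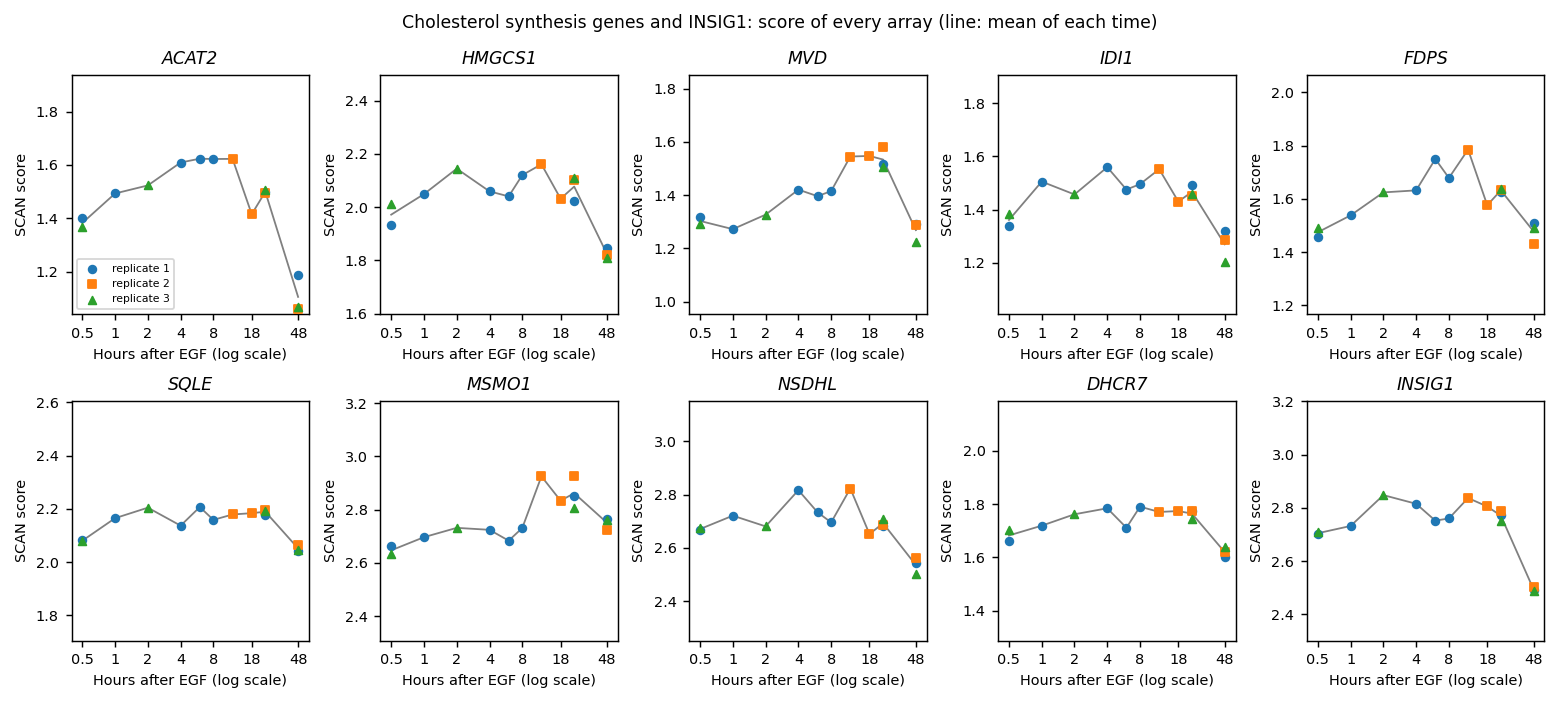
SCAN score of each gene (vertical axis, every panel with the same span, centred on the gene's own mean) against hours after EGF on a log scale, with 1 point for each of the 15 arrays, the marker giving the replicate number and the line joining the means of the times. The 48 h points lie below the 24 h points in all 10 panels (14.3% of all genes), most widely in ACAT2. The line of means is highest at 12 h in 4 panels.

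In the first step of the pathway ACAT2, the cytosolic thiolase that joins a pair of acetyl-CoA molecules, moved over the widest range of the 10 genes. Its score was 1.40 and 1.37 at 0.5 h, 1.49 at 1 h, 1.52 at 2 h, 1.61 at 4 h, 1.62 at 6 h, 1.62 at 8 h, 1.62 at 12 h, 1.42 at 18 h, 1.50, 1.50 and 1.50 at 24 h, and 1.19, 1.06 and 1.07 at 48 h. The level stayed on a plateau from 4 to 12 h, was lower by 18 h and was lowest at 48 h, where the 3 arrays lay below all earlier ones. HMGCS1 encodes the HMG-CoA synthase of the next step. It scored 1.93 and 2.01 at 0.5 h, 2.05 at 1 h, 2.14 at 2 h, 2.06 at 4 h, 2.04 at 6 h, 2.12 at 8 h, 2.16 at 12 h, 2.03 at 18 h, 2.02, 2.10 and 2.11 at 24 h, and 1.84, 1.82 and 1.81 at 48 h. Its highs were at 2 h and 12 h, and all 48 h arrays lay below both 0.5 h arrays.

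MVD makes isopentenyl diphosphate from mevalonate diphosphate. Its score was 1.32 and 1.29 at 0.5 h, 1.27 at 1 h, 1.33 at 2 h, 1.42 at 4 h, 1.40 at 6 h, 1.42 at 8 h, 1.55 at 12 h, 1.55 at 18 h, 1.52, 1.58 and 1.50 at 24 h, and 1.29, 1.29 and 1.22 at 48 h. This gene reached its high level only at 12 h, held it through 24 h and was at 48 h near or below its scores of the first hours. IDI1, the isomerase that turns isopentenyl diphosphate into dimethylallyl diphosphate, scored 1.34 and 1.38 at 0.5 h, 1.51 at 1 h, 1.46 at 2 h, 1.56 at 4 h, 1.48 at 6 h, 1.50 at 8 h, 1.55 at 12 h, 1.43 at 18 h, 1.49, 1.45 and 1.46 at 24 h, and 1.32, 1.29 and 1.20 at 48 h. It was already above both 0.5 h arrays at 1 h, and its 48 h arrays lay below both. FDPS condenses these units to farnesyl diphosphate, the branch point to sterols and to prenylated proteins. It scored 1.46 and 1.49 at 0.5 h, 1.54 at 1 h, 1.62 at 2 h, 1.63 at 4 h, 1.75 at 6 h, 1.68 at 8 h, 1.79 at 12 h, 1.58 at 18 h, 1.63, 1.63 and 1.64 at 24 h, and 1.51, 1.43 and 1.49 at 48 h. The highest arrays were those of 6 h and 12 h, and the 48 h arrays overlapped those of 0.5 h.

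In the sterol steps SQLE, the squalene epoxidase, had the narrowest range of the 10 genes at 0.16 units between time means. It scored 2.08 and 2.08 at 0.5 h, 2.17 at 1 h, 2.20 at 2 h, 2.14 at 4 h, 2.21 at 6 h, 2.16 at 8 h, 2.18 at 12 h, 2.18 at 18 h, 2.18, 2.20 and 2.19 at 24 h, and 2.04, 2.06 and 2.05 at 48 h. Every array from 1 to 24 h lay above those of 0.5 h and 48 h. MSMO1, a methylsterol oxidase, scored 2.66 and 2.63 at 0.5 h, 2.70 at 1 h, 2.73 at 2 h, 2.72 at 4 h, 2.68 at 6 h, 2.73 at 8 h, 2.92 at 12 h, 2.83 at 18 h, 2.85, 2.92 and 2.81 at 24 h, and 2.77, 2.72 and 2.76 at 48 h. The step up came between 8 h and 12 h, and the 48 h arrays stayed above both 0.5 h arrays. NSDHL, the sterol dehydrogenase that acts after MSMO1, scored 2.67 and 2.68 at 0.5 h, 2.72 at 1 h, 2.68 at 2 h, 2.82 at 4 h, 2.73 at 6 h, 2.70 at 8 h, 2.82 at 12 h, 2.65 at 18 h, 2.68, 2.69 and 2.71 at 24 h, and 2.54, 2.56 and 2.50 at 48 h. Its highs were the single arrays of 4 h and 12 h, while the 24 h arrays were near those of 0.5 h. DHCR7, the reductase that makes cholesterol from its last precursor, scored 1.66 and 1.70 at 0.5 h, 1.72 at 1 h, 1.76 at 2 h, 1.78 at 4 h, 1.71 at 6 h, 1.79 at 8 h, 1.77 at 12 h, 1.77 at 18 h, 1.77, 1.77 and 1.75 at 24 h, and 1.60, 1.62 and 1.64 at 48 h. It ran nearly level from 8 to 24 h, and the 48 h arrays lay below all others. INSIG1 scored 2.70 and 2.71 at 0.5 h, 2.73 at 1 h, 2.85 at 2 h, 2.82 at 4 h, 2.75 at 6 h, 2.76 at 8 h, 2.84 at 12 h, 2.81 at 18 h, 2.77, 2.79 and 2.75 at 24 h, and 2.49, 2.50 and 2.49 at 48 h. It was highest at 2 h and 12 h, and its 48 h arrays lay close together below every other array.

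**Figure D2:**
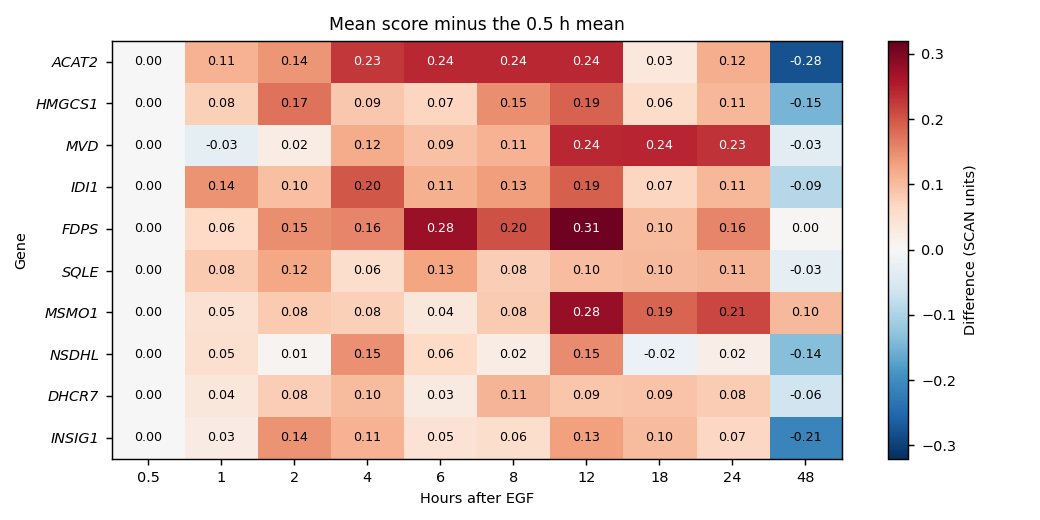
Mean score of each gene (rows) at each time (columns) minus its mean at 0.5 h, in SCAN units, with colour and printed number giving the difference. FDPS reaches 0.31 at 12 h, ACAT2 holds 0.23 to 0.24 from 4 to 12 h, MSMO1 and MVD step up at 12 h, and ACAT2 falls to -0.28 and INSIG1 to -0.21 at 48 h.

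The fall from 24 to 48 h was called in 10 of 10 genes at an adjusted p under 0.05 (limma, 3 against 3 arrays). Of all genes, 6.68% were called lower. The 10 genes were chosen with earlier results of these data known, so this contrast is not independent of the choice. Their median difference was -0.18 units and that of all genes -0.00058. ACAT2 fell by 0.39 ± 0.032 (SE, adjusted p = 7.9e-08), INSIG1 by 0.28 ± 0.026 (adjusted p = 4.3e-07), MVD by 0.26 ± 0.030 (adjusted p = 4.8e-06) and HMGCS1 by 0.25 ± 0.031 (adjusted p = 1.4e-05). These were the largest falls among the 10. IDI1, NSDHL, FDPS, DHCR7 and SQLE fell by 0.14 to 0.20 units, with adjusted p between 0.00025 and 0.0011. MSMO1 fell by 0.11 ± 0.031 (adjusted p = 0.023), and this call was lost without 24 h replicate 1 (adjusted p = 0.051), without 24 h replicate 2 (adjusted p = 0.12) or without 48 h replicate 2 (adjusted p = 0.096). Groups that did not overlap, with all 48 h arrays below all 24 h arrays, were found in 14.3% of all genes. A second probe set of FDPS differed by -0.099 ± 0.035 between these times (adjusted p = 0.11 over all probe sets).

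Markers of proliferating cells moved in the same direction over the same hours. The 8 markers MKI67, TOP2A, CCNB1, BUB1, PLK1, MCM2, MCM6 and PCNA had a mean score of 2.13 to 2.20 on the arrays of 0.5 to 12 h, 1.85 at 18 h, 1.87 to 1.91 at 24 h and 1.33 to 1.35 at 48 h. All 8 fell from 24 to 48 h, with a median of -0.67 units, while 6.68% of all genes were called lower. From 0.5 to 12 h the median of the 8 was 0.0065 units, and TOP2A differed most among them in the upward direction, by 0.11 units (limma, adjusted p = 0.19). CD68 was also lower at 48 h than at 24 h, by 0.11 units, while the median difference was -0.0077 in the 5 epithelial and -0.0026 in the 3 mesenchymal markers. The part of these changes in the fall of the cholesterol genes was not tested. On bulk arrays fewer cells of a kind and less transcript per cell cannot be told apart.

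From 0.5 to 12 h, 7 of the 10 genes rose, while 1.7% of all genes were called higher. The 12 h group is a single array, taken to vary as the replicated times do. FDPS rose by 0.31 ± 0.042 (adjusted p = 0.00031), MSMO1 by 0.28 ± 0.047 (adjusted p = 0.0024), MVD by 0.24 ± 0.045 (adjusted p = 0.0053) and ACAT2 by 0.24 ± 0.049 (adjusted p = 0.0093). HMGCS1 and IDI1 each rose by 0.19 units, and NSDHL by 0.15 (adjusted p = 0.047). INSIG1 differed by 0.13 (95% interval 0.05 to 0.21, adjusted p = 0.072), SQLE by 0.099 (adjusted p = 0.18) and DHCR7 by 0.088 (adjusted p = 0.27). Without either array of 0.5 h the count was 4, with HMGCS1, IDI1 and NSDHL lost without replicate 1 and IDI1, NSDHL and ACAT2 lost without replicate 3. FDPS, MSMO1 and MVD were called in both cases. The 0.5 h arrays carry replicate numbers 1 and 3 and the 12 h array number 2. How these calls changed with a replicate block is given at the end. Over the same span KRT7 fell by 0.26 units, while the median of the 5 epithelial markers was 0.017 units. EPCAM (2.14 to 2.19), KRT8 (0.77 to 0.79), KRT18 (2.85 to 2.88) and KRT19 (1.76 to 1.77) were slightly higher at 12 h. The part of KRT7 was not tested. In the second probe set of FDPS the difference was 0.17 ± 0.052 (adjusted p = 0.14 over all probe sets).

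With 8, 12 and 18 h averaged, so that the rise rests on 3 arrays, HMGCS1, IDI1, FDPS, MSMO1, MVD and ACAT2 rose against 0.5 h. These 6 compare with 4.22% of all genes. The largest differences were those of FDPS at 0.21 ± 0.032 (adjusted p = 0.00049) and MVD at 0.20 ± 0.033 (adjusted p = 0.0011). INSIG1, SQLE and DHCR7 had adjusted p of 0.051, 0.054 and 0.059, and NSDHL differed by 0.053 (95% interval -0.01 to 0.12). The count was 9 among brighter genes and 9 with trend and robust eBayes, where INSIG1, SQLE and DHCR7 were also called. It was 3 without 0.5 h replicate 3, when IDI1, MSMO1 and ACAT2 were lost, 4 without 0.5 h replicate 1, and 4 without the 12 h array, when HMGCS1 and IDI1 were lost in each case. From this mean to 48 h, 9 genes fell, all but MSMO1 (-0.079, adjusted p = 0.084), while 9.7% of all genes were called lower. The second probe set of FDPS was called in both comparisons, with 0.22 ± 0.039 and -0.13 ± 0.035.

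At 24 h, where 3 arrays stand behind the level, 7 genes were above 0.5 h, while 9.96% of all genes were called higher. MVD was up by 0.23 ± 0.033 (adjusted p = 8.9e-05), MSMO1 by 0.21 ± 0.035 (adjusted p = 0.00027) and FDPS by 0.16 ± 0.032 (adjusted p = 0.0017). ACAT2, SQLE, IDI1 and HMGCS1 were up by 0.11 to 0.12 units, with adjusted p from 0.012 to 0.046. The count was 3 without 0.5 h replicate 1 and 4 without 0.5 h replicate 3, without 24 h replicate 2 or without 24 h replicate 3, and MVD, MSMO1 and FDPS were called in all 4 of these cases. Neither NSDHL (0.022), INSIG1 (0.066) nor DHCR7 (0.082) passed the threshold at 24 h.

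Whether 12 h was a peak above its neighbours in time was asked with the mean of 8 and 18 h. In limma 0 of the 10 genes was called higher at 12 h, with 0.0818% of all genes called. An unadjusted p under 0.05 with a higher level was found in 4 of the 10 and in 4.76% of all genes. These were FDPS at 0.16 (adjusted p = 0.14), NSDHL at 0.15 (adjusted p = 0.14), MSMO1 at 0.14 (adjusted p = 0.23) and ACAT2 at 0.10 (adjusted p = 0.42). With variance trend and robust estimation in eBayes, NSDHL was called. The highest mean fell at 12 h in 4 of the 10 genes, against 7.98% of all genes, and in 7 of the 10 when each array was centred on its median, which put the high of 10.7% of all genes there. SQLE and ACAT2 were highest at 6 h, IDI1 at 4 h, DHCR7 at 8 h, INSIG1 at 2 h and MVD at 18 h. The second probe set of FDPS scored 1.10 at 8 h and 0.99 at 12 h. In it 12 h differed from the mean of 8 and 18 h by -0.074 ± 0.052, and 48 h from 12 h by -0.084 ± 0.049. Neither difference was called. The fall from the 12 h array to 48 h was called in 10 of 10 genes, with 7.53% of all genes called lower, and ran from 0.52 ± 0.046 in ACAT2 to 0.13 ± 0.036 in SQLE.

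**Figure D3:**
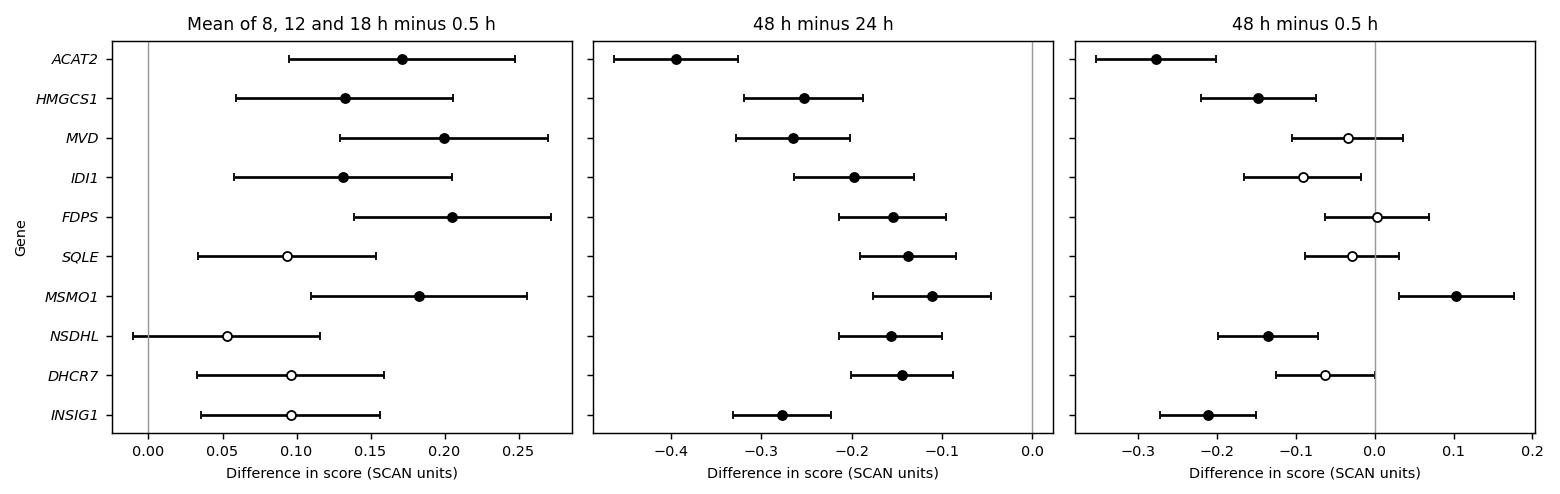
Difference in SCAN score for each gene (rows) in 3 comparisons, with points giving the fitted difference, bars its 95% interval and filled points an adjusted p under 0.05. All 10 genes lie left of 0 in 48 h minus 24 h, 6 are filled on the right in the mean of 8, 12 and 18 h minus 0.5 h, and MSMO1 alone is filled on the right in 48 h minus 0.5 h.

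The early hours were set against 0.5 h with contrasts that were added after the values had been seen. For the mean of 1 and 2 h limma called 0 of the 10 genes, with 0.538% of all genes called higher. An unadjusted p under 0.05 with a higher level was found in 6 of the 10 and in 6.29% of all genes. The largest of these 6 differences were 0.13 ± 0.040 in ACAT2 and 0.12 ± 0.038 in HMGCS1. By the mean of 4, 6 and 8 h ACAT2 (0.24 ± 0.036, adjusted p = 0.00089), FDPS (0.21 ± 0.032, adjusted p = 7e-04) and IDI1 (0.15 ± 0.035, adjusted p = 0.024) had risen, 3 genes against 2.04% of all. IDI1 was no longer called without either array of 0.5 h, without the 4 h array or after quantile normalisation (adjusted p = 0.07).

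MSMO1 and MVD stood higher late than in the middle hours, again by a contrast added after the values had been seen. The mean of 12, 18 and 24 h exceeded that of 4, 6 and 8 h by 0.16 ± 0.029 in MSMO1 (adjusted p = 0.0011) and by 0.13 ± 0.028 in MVD (adjusted p = 0.0038), 2 genes against 5.05% of all. ACAT2 was lower over the same span by 0.11 ± 0.031 (adjusted p = 0.026), 1 gene against 9.31%. In the other 7 genes the difference lay between -0.027 and 0.028. The 3 arrays of 4, 6 and 8 h all carry replicate number 1 and those of 12 and 18 h number 2, so for the single arrays the number and the time cannot be told apart. Over the 10 time means, the profile of MSMO1 correlated with the mean of the other 9 genes at r = 0.40 and that of MVD at r = 0.65, while the other 8 lay between 0.79 and 0.90. The 10 points share arrays across genes, and these values are a description.

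From first to last time, ACAT2 was lower at 48 h than at 0.5 h by 0.28 ± 0.036 (adjusted p = 1e-05), INSIG1 by 0.21 ± 0.029 (adjusted p = 1.7e-05), HMGCS1 by 0.15 ± 0.035 (adjusted p = 0.0032) and NSDHL by 0.14 ± 0.030 (adjusted p = 0.0021). These 4 compare with 13.1% of all genes called lower. HMGCS1 was not called without 0.5 h replicate 3 (adjusted p = 0.085). MSMO1 was higher by 0.10 ± 0.035 (adjusted p = 0.032), 1 gene against 15.5%, and was not called without either 0.5 h array, without 48 h replicate 1 or without 48 h replicate 3 (adjusted p from 0.078 to 0.19), nor after quantile normalisation (adjusted p = 0.24) or with all probe sets tested (adjusted p = 0.06). FDPS (0.0030, 95% interval -0.06 to 0.07), SQLE (-0.029, -0.09 to 0.03) and MVD (-0.034, -0.10 to 0.04) were near their first level. All 48 h arrays lay below both 0.5 h arrays in 7 of the 10 genes, against 24.4% of all genes. The lowest time mean was that of 48 h in 8 genes, against 14% of all, and that of 0.5 h in FDPS and MSMO1.

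Over the whole course the moderated F test called 10 of 10 genes, with adjusted p from 1.1e-07 in ACAT2 to 0.0053 in DHCR7, and 31.8% of all genes. A peak score after the idea of the study, the largest distance of a time mean from the mean of all times, exceeded 2 times the noise threshold in 8 genes, against 15.7% of all. SQLE and DHCR7 did not pass it. The largest distance was the low at 48 h in ACAT2 (0.38), INSIG1 (0.26), HMGCS1 (0.22), IDI1 (0.19) and NSDHL (0.17), and the high at 12 h in FDPS (0.17) and MSMO1 (0.17) or at 18 h in MVD (0.14).

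The other genes of the pathway were counted from a list of 24 mevalonate and sterol enzymes, of which 17 were measured, 9 of them described above. Of the other 8, 4 were called lower from 24 to 48 h and 0 higher, while 6.68% of all genes were called lower. HSD17B7, a ketoreductase of the sterol steps, fell by 0.20 ± 0.037 (adjusted p = 0.00088), EBP, a sterol isomerase, by 0.16 ± 0.028 (adjusted p = 0.00083), LBR, a sterol reductase that also anchors chromatin to the nuclear envelope, by 0.15 ± 0.030 (adjusted p = 0.0018), and MVK, mevalonate kinase, by 0.13 ± 0.027 (adjusted p = 0.0035). The median of these 8 was -0.11 units. HSD17B7 (0.25 ± 0.041) and EBP (0.15 ± 0.031) had also risen from 0.5 h to the mean of 8, 12 and 18 h.

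Among the regulators INSIG2, the paralogue of INSIG1, differed by -0.017 ± 0.031 between 24 and 48 h (adjusted p = 0.81). SREBF2, which encodes the SREBP form tied mainly to cholesterol genes, rose from 0.5 h to the mean of 8, 12 and 18 h by 0.13 ± 0.029 (adjusted p = 0.0089) and was 0.21 ± 0.029 above its 0.5 h level at 48 h (adjusted p = 2.2e-05), when INSIG1 was below its own. SREBF1 rose by 0.13 ± 0.034 to 8, 12 and 18 h and fell by 0.097 ± 0.030 from 24 to 48 h (adjusted p = 0.043). SCAP differed by 0.050 ± 0.028 in the latter comparison (adjusted p = 0.30). Of the 7 sterol sensing genes measured beside INSIG1, 1 was called lower from 24 to 48 h, against 6.68% of all genes.

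Among 6 measured genes of uptake and trafficking, TMEM97, a sterol-responsive membrane protein, fell by 0.17 ± 0.028 from 24 to 48 h (adjusted p = 0.00032), and STARD4, a sterol carrier, had risen by 0.17 ± 0.034 to 8, 12 and 18 h (adjusted p = 0.0046). A further list joined genes of efflux and targets of the receptor LXR. Of its 4 measured genes 1 was called higher from 24 to 48 h, against 909 of 14675 genes. This was CH25H, a cholesterol hydroxylase, which scored 0.15 at 24 h and 0.26 at 48 h. These scores are not far above the array medians, and whether the probe set was above background was not tested. Of 15 measured genes of fatty acid synthesis, 7 fell over these hours and 1 rose. Among all 14675 genes, 980 (6.68%) were called lower and 909 higher. ACSS2, an acetyl-CoA synthetase, fell by 0.14 ± 0.027, ACLY, the citrate lyase that supplies cytosolic acetyl-CoA, by 0.13 ± 0.025, and FASN, the fatty acid synthase, by 0.13 ± 0.031. SCD, the stearoyl-CoA desaturase, rose by 0.13 ± 0.027 (adjusted p = 0.0032) and had already risen by 0.17 ± 0.030 from 0.5 h to 8, 12 and 18 h. The median of these 15 was -0.057 units from 24 to 48 h, against -0.18 units for the 10 genes described here.

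**Figure D4:**
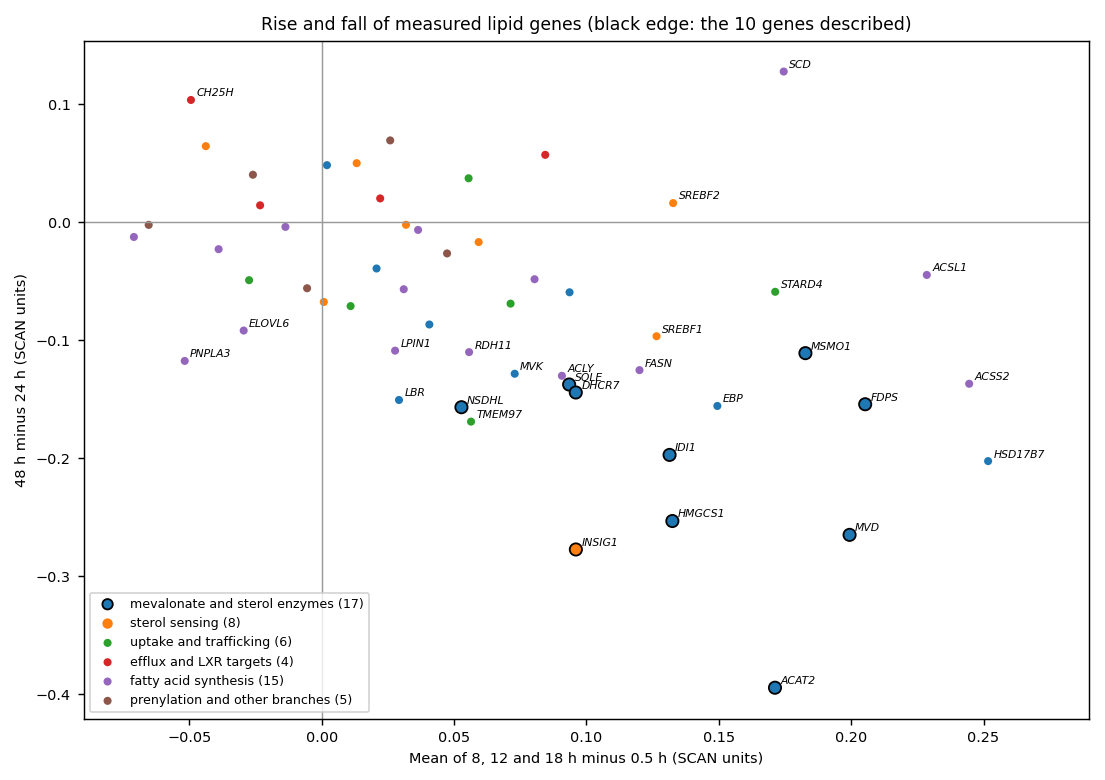
Each measured gene of 6 lipid lists, placed by its difference between the mean of 8, 12 and 18 h and 0.5 h (horizontal axis) and between 48 h and 24 h (vertical axis), both in SCAN units, coloured by list, with black edges for the 10 genes described and names for those and for genes called in either comparison. The 10 genes lie in the lower right part with ACAT2 lowest, HSD17B7 and EBP lie beside them, and SCD lies in the upper right.

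Likeness of profile was ranked with the 10 genes described here left out, whatever their range. Among 1248 other genes with a range of time means of at least 0.3 units, the 8 whose 10 time means correlated most with the mean profile of the cholesterol genes were CEP85 (r = 0.95), ANKRD33 (0.92), TM4SF19 (0.91), HSD17B7 (0.89), MT1L (0.87), PTTG1 (0.86), TMC5 (0.86) and CKAP2 (0.85). HSD17B7 is the one enzyme of sterol synthesis among them, PTTG1 encodes the mitotic inhibitor securin, and CKAP2 and CEP85 encode proteins of the spindle and the centrosome. SQLE, DHCR7, MSMO1, MVD, NSDHL and IDI1 themselves had ranges under 0.3 units. Other sterol enzymes with ranges that small could not be listed. All 8 were lowest at 48 h, and CEP85 and ANKRD33 were highest at 12 h. The score of CEP85 was 1.21 at 0.5 h, 1.46 at 12 h and 0.97 at 48 h, and that of HSD17B7 was 0.95, 1.24 and 0.90. ANKRD33 (0.37, 0.60 and 0.29) and PTTG1 (0.28, 0.35 and 0.041) scored low at these times. At 48 h PTTG1 lay below the array medians of 0.064 to 0.079. Whether these 2 probe sets were above background was not tested.

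Some of the probes may read more than the named gene. The reference table holds 10 pseudogenes named after FDPS and 3 after IDI1. In that table IDI1 overlaps IDI2-AS1 and WDR37, ACAT2 overlaps SOD2, SOD2-OT1 and TCP1, FDPS overlaps RUSC1-AS1, DHCR7 overlaps DHCR7-DT, and INSIG1 overlaps INSIG1-DT and LOC105375592. Their part in the scores was not tested.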

How the data were processed

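RNA of 15 H1975 samples was hybridised to Human Gene 2.0 ST arrays, and groups came from the hour in the labels. The deposited values are SCAN scores, made by the authors with Single Channel Array Normalisation (SCAN, version not given in the sources used here). Probes were assigned to genes by the manufacturer's annotation, and the authors excluded arrays that looked like outliers. The labels list an array at 18 h, which the protocol text does not name, and it was used as labelled. Whether replicates were separate cultures is not stated, so p-values measure the spread between these arrays, which may be technical.

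The table holds 39937 probe sets, of which 15426 have 1 symbol and 24511 none here, leaving 14675 genes after 1 probe set was kept for each symbol (highest mean). No dim probe set was removed and no further normalisation applied. Time was fitted as a factor of 10 levels with limma 3.58.1 (lmFit, eBayes) in R 4.3.3, with 5 residual degrees of freedom from 0.5, 24 and 48 h, two-sided moderated tests and Benjamini-Hochberg adjustment over all 14675 genes. Calls needed an adjusted p under 0.05. The peak score was set against the 0.95 quantile of replicate standard deviations among genes of similar mean in 14 groups. Alternatives were quantile normalisation, median centring, brighter genes, all probe sets, trend and robust eBayes, a replicate block and leaving out arrays. The fit was tested on simulated data. The number of arrays limits the precision. The 10 genes, the lists and the rule for naming other genes were chosen with earlier results of these data known. That rule named list genes called in the rise to 8, 12 and 18 h or in the fall from 24 to 48 h, a fixed set of pathway genes, and the 8 genes closest in profile.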

Additional observations from a re-analysis of the deposited data

How the results depend on the processing

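The fall from 24 to 48 h kept at least 9 of 10 genes under every alternative run. Arrays of 24 and 48 h with the same replicate number deviated together only weakly (r = 0.010, 0.028 and 0.030). Each 48 h array still correlated best with the 24 h array of its own number. These values do not cover the single arrays, for which the number and the time cannot be told apart. With a replicate block, the rise from 0.5 to 12 h was called in 2 of the 10 genes, FDPS and ACAT2, in place of 7 (HMGCS1, IDI1, MSMO1, NSDHL and MVD lost), that to the mean of 8, 12 and 18 h in 3 in place of 6 (HMGCS1, IDI1 and MSMO1 lost), and the higher level at 12, 18 and 24 h against 4, 6 and 8 h in 1 in place of 2 (MVD lost), where the median of the 10 genes turned from 0.012 to -0.0030. The block also left 8 of 10 falls from 12 to 48 h (SQLE, adjusted p = 0.077, and MSMO1, adjusted p = 0.051, lost), 5 of 7 rises to 24 h (HMGCS1 and IDI1 lost), 2 of 3 rises to the mean of 4, 6 and 8 h (IDI1 lost, adjusted p = 0.11), and no call of MSMO1 for 48 h against 0.5 h (0.094 units, adjusted p = 0.076). All-gene calls for the first 3 comparisons moved from 496 to 191, from 1107 to 530 and from 2107 to 901. With all probe sets tested, 4 genes were called from 0.5 to 12 h and 4 from 0.5 to 24 h. The mean of 4, 6 and 8 h gave 5 among brighter genes, 5 with trend and robust estimation and 2 after quantile normalisation. The mean of 8, 12 and 18 h gave 9 among brighter genes and 9 with trend and robust estimation, under which 12 h against 8 and 18 h gave 1. Median centring put the high at 12 h in 7, and 3 times the noise threshold left 3 genes past the peak score. Leaving out 1 replicate in turn, counts ran from 4 to 7 for 12 h against 0.5 h, from 3 to 6 for 24 h against 0.5 h, where every omission lost at least 1 of the 7 calls, and from 3 to 6 for the mean of 8, 12 and 18 h. The causes were not tested.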
